A study of Mus musculus with 2 samples.

Results

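The neurexin Nrxn2 and Nrxn3 genes, the neuroligin Nlgn1, Nlgn2 and Nlgn3 genes and the Lrrtm1, Lrrtm2, Lrrtm3 and Lrrtm4 genes encode synaptic adhesion proteins. They were chosen by symbol, 9 genes of the 31040 in the matrix, and are described across the cell types of the mouse prefrontal cortex. Nuclei came from male, wild-type C57BL/6 mice aged 2 months, which received methamphetamine (METH, a stimulant) at 5 mg/kg or saline (Control) into the peritoneum for 14 days. Nuclei of each group were prepared from the cortex of 3 mice and no barcode is tied to a mouse, so a group is 1 library. No label ties either library to METH or Control, so METH was not compared with Control, and values are given for library 1 and for library 2. With 1 library per group there is no replicate, no p-value was computed, and every interval is an exact 95% interval that covers counting error only.

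Neurexins are presynaptic receptors whose many isoforms bind partners across the synaptic cleft. Neuroligins and the leucine-rich repeat transmembrane (LRRTM) proteins are postsynaptic partners of the neurexins: Nlgn1 acts mainly at excitatory synapses, Nlgn2 at inhibitory synapses and Nlgn3 at both, and the LRRTM proteins act at excitatory synapses. Lrrtm4 also binds heparan sulphate proteoglycans, and glia are known to carry some of these genes as well as neurons.

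The matrix held unique molecular identifier (UMI) counts, 31273163 on 9890 barcodes of library 1 and 35292937 on 10876 barcodes of library 2, and the libraries were told apart by the barcode suffix. Without the suffix 154 barcode sequences occurred in both. After nuclei with under 500 genes and doublets were removed, 18002 nuclei remained, 8003 in library 1 and 9999 in library 2, with medians of 3047 and 2924 UMIs. The clusters were built without the 9 genes and named from marker genes, and a class name stands for nuclei like that class by its markers. There were 8 classes of at least 100 nuclei. They were excitatory neurons (8030), oligodendrocytes (3057), inhibitory neurons (2948), striatal projection neurons (1408), microglia (882), oligodendrocyte precursors (357), neuroblasts or dividing progenitors (314) and astrocytes (306), and 428 nuclei stayed unnamed. The small classes carried their defining markers. Summed over nuclei, Pdgfra reached 1116 CPM (the UMIs of a gene relative to all UMIs of the class) in oligodendrocyte precursors and at most 27.2 CPM in any other named class, Slc1a3 reached 2781 CPM in astrocytes, and Igfbpl1 reached 341 CPM in neuroblasts. Striatal projection neurons carried Pde10a at 1908 CPM and Rgs9 at 734 CPM; neurons of this type belong to the striatum, although the tissue is labelled prefrontal cortex. Library 1 held only 50 astrocytes, 90 neuroblasts and 128 precursors, against 256, 224 and 229 in library 2, so single-library values of these classes are less precise. Free RNA in droplets was gauged from Slc17a7, the vesicular glutamate transporter of excitatory neurons, which read 434 CPM in microglia and 374 CPM in excitatory neurons themselves. Scaled by that transcript (by myelin transcripts for excitatory neurons), the lowest level of a gene in any class gave a limit on its free RNA. This limit, called its free RNA level, is an upper one only if free RNA has the same make-up in every class. The ratio of Slc17a7 to myelin transcripts over 5 classes ran between 0.113 and 0.344 in library 1 and between 0.177 and 0.219 in library 2. A gene exceeded its free RNA level where its interval lay above. A class that sets the level in both libraries cannot exceed it, so a gene not above free RNA is not shown to be absent there.

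All 9 genes had at least 50 UMIs, the minimum for a comparison, with totals over all nuclei between 1112 for Lrrtm1 and 304955 for Nrxn3. A gene of long introns can collect more UMIs in nuclei than a short gene, and the loci differ widely in length, with 1612 kb for Nrxn3, 906 kb for Nlgn1 and 791 kb for Lrrtm4 but 14.7 kb for Nlgn2 and 6.02 kb for Lrrtm2. Each gene was therefore compared with itself across cell types, and levels were not compared between genes. In GENCODE M21 on GRCm38, Nrxn3 spans chr12:88722876-90334935 on the plus strand, Nlgn1 spans chr3:25426215-26332460 on the minus strand and Lrrtm4 spans chr6:80018877-80810143 on the plus strand. Nrxn2 lies at chr19:6418731-6544169 on the plus strand, Nlgn2 at chr11:69823122-69837784 on the minus strand and Nlgn3 at chrX:101299168-101325963 on the plus strand. The other 3 LRRTM genes lie inside alpha-catenin genes, which are transcribed from the opposite strand. Lrrtm1 (chr6:77242689-77257791, plus strand) lies in Ctnna2, Lrrtm2 (minus strand) in Ctnna1 and Lrrtm3 (chr10:63928472-64090277, minus strand) in Ctnna3.

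The 250 bases before a RefSeq start were read for 6 of the 9 genes (build GRCm38.p6). Shown are 4 windows, 1 for each of the patterns described. These are Nlgn2 for a highest level in precursors, Nrxn3 for neuroblasts and inhibitory neurons and Lrrtm4 for excitatory neurons. Lrrtm3 stands for a high level in mature oligodendrocytes, although its highest class was the striatal projection neuron. The 4 windows lie at chr11:69837785-69838034 (Nlgn2, minus strand), chr12:89812233-89812482 (Nrxn3, plus strand, an internal start within the gene), chr10:64090256-64090505 (Lrrtm3, minus strand, inside Ctnna3) and chr6:80018627-80018876 (Lrrtm4, plus strand). Each is printed 5′ to 3′ on the strand of its gene. Capitals mark the E-box CANNTG, bound by basic helix-loop-helix factors, and the TATA motif TATAAA, found on either strand (as TTTATA where it reads on the other).
Nlgn2: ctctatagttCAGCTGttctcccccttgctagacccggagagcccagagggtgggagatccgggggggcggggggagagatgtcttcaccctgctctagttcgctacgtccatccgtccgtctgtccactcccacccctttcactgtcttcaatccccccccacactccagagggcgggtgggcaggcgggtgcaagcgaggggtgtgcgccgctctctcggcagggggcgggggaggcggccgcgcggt
Nrxn3: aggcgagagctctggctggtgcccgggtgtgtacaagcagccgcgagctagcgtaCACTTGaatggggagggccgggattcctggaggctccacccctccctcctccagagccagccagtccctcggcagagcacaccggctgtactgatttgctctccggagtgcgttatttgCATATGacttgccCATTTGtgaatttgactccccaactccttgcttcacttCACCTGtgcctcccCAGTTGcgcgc
Lrrtm3: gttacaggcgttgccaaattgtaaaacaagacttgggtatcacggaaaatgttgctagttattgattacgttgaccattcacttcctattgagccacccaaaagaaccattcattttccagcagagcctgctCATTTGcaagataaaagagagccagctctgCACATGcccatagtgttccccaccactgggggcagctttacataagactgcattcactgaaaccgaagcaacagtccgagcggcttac
Lrrtm4: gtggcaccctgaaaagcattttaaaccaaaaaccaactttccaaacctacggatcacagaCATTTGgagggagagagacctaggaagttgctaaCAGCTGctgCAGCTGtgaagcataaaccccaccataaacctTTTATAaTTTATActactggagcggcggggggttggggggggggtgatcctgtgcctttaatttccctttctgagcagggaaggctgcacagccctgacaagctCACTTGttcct
The Nlgn2 window was the richest in CpG of the 10 windows read, with 18 CpG and 67.6% G or C. The medians over 32851 RefSeq windows of the same length were 6 CpG and 52.4%, and 19.7% of these windows held more CpG. The Lrrtm4 window shown was the only one of the 10 with a TATA motif, which 12.4% of all windows held. The Nrxn3 window shown held 5 E-boxes, the Lrrtm4 window shown 4, the Lrrtm3 window 2 and the Nlgn2 window 1. Among windows read but not shown, those of Nrxn3 held 0 and 1 E-boxes and that of Lrrtm4 held 2. Of all windows 66.2% held at least 1. None of the 10 held the cyclic AMP response element TGACGTCA, which 1.55% of all windows held. A match is a description of the letters, not of a bound site.

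Across the 8 classes the highest level of a gene was called clear where its ratio to the class ranked second had an interval without 1 and the same class led in each library. By this rule 7 of the 9 genes had a clear highest class, where 26.4% of 15845 genes with at least 50 UMIs did, and 3 of 9 were also at least 1.5-fold above the next class, where 20.5% of these genes were. The highest class was the oligodendrocyte precursor for Nrxn2, Nlgn2 and Nlgn3, while 1.95% of all genes were clearly highest there. It was the striatal projection neuron for Nlgn1 and Lrrtm3 (3.17% of genes), the neuroblast for Nrxn3 (1.45%) and the excitatory neuron for Lrrtm4 (2.46%). The ratio of the highest to the next class had a median of 1.43 over the 9 genes and of 1.27 over all genes. Genes with many UMIs have narrower intervals, and the share over all genes was not matched for this.

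Nrxn2 had its highest level in oligodendrocyte precursors, the dividing cells that give rise to myelinating glia. There it read 576 CPM in library 1 and 658 CPM in library 2, 629.7 CPM with both pooled (264 UMIs, interval 556 to 710.5). Neuroblasts came next with 311 and 315 CPM, and the pooled ratio of precursors to neuroblasts was 2.01 (1.62 to 2.50). Both libraries of the precursors were above every other class in either library. Neuroblasts (314 CPM) and astrocytes (297 CPM) did not differ beyond their intervals. Inhibitory neurons followed with 221 CPM, excitatory neurons with 188, oligodendrocytes with 184 and striatal projection neurons with 157. Microglia were lowest with 153 CPM, under their free RNA level of 200.4 CPM. Of precursor nuclei 48.2% had an Nrxn2 UMI at a median depth of 1129 UMIs, against 10.8% of microglia at 693 UMIs. After each nucleus was thinned to 1000 UMIs these shares were 41.0% of 244 precursors and 18.2% of 55 microglia (34.8 to 47.4% and 9.08 to 30.9%).

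Nrxn3 followed another order, highest in neuroblasts or dividing progenitors, then in inhibitory and striatal neurons. The order held for classes and not for every subclass: LAMP5 interneurons, described below, had 3548 CPM against 4951 CPM in all excitatory neurons. Nrxn3 read 11133 and 12430.3 CPM in neuroblasts of libraries 1 and 2, against 7918 and 8425 CPM in inhibitory neurons, the next class. The pooled ratio of neuroblasts to inhibitory neurons was 1.47 (1.43 to 1.52). Striatal projection neurons, which are also inhibitory, had 7677 and 7455 CPM and excitatory neurons 4724 and 5159 CPM. The steps from neuroblasts to inhibitory, striatal and excitatory neurons were each above 1 in both libraries. Excitatory over inhibitory neurons gave a ratio of 0.604 (0.599 to 0.609), where 12.4% of 15243 genes were at least 1.5-fold lower in this comparison in each library and pooled, the criterion used for every pair of cell types below. Among glia, precursors had 2548 and 2558 CPM. Oligodendrocytes had 429.8 and 834 CPM, not above their pooled free RNA level of 667 CPM, and microglia (576 and 1185 CPM) and astrocytes (643 and 941 CPM) lay close to theirs of 816 and 691 CPM. Nrxn3 in these last classes also differed most between the libraries, with ratios of library 2 to library 1 of 2.06 in microglia and 1.94 in oligodendrocytes.

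Nlgn1, the neuroligin of excitatory synapses, split the neuronal classes into 2 levels. The split did not hold for every subclass: layer 6b and claustrum neurons, described below, had 1312 and 1185 CPM. Striatal projection neurons had 3519 and 3749 CPM, excitatory neurons 3218 and 3450.1 CPM, and inhibitory neurons 1258 and 1568 CPM. The ratio of excitatory to inhibitory neurons was 2.34 (2.29 to 2.38), where 9.63% of genes were at least 1.5-fold higher, and that of striatal to inhibitory neurons was 2.58 (2.52 to 2.64), where 8.95% of 12611 genes were. Oligodendrocyte precursors had 3284 and 3543 CPM, which did not differ from excitatory neurons beyond the interval (ratio of precursors to excitatory neurons 1.03, 0.981 to 1.09). The ratio of striatal neurons to precursors was 1.07 (1.01 to 1.13), and its log2 turned to −0.074 once each nucleus was thinned to 1000 UMIs. Striatal neurons stayed clearly highest for Nlgn1 under 4 of 11 processing alternatives. Neuroblasts (1538 CPM), inhibitory neurons (1429.6 CPM) and astrocytes (1321 CPM) were neighbours that did not differ beyond their intervals. Oligodendrocytes had 651 CPM, and microglia, with 370.1 CPM, did not exceed their free RNA level of 441 CPM.

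Nlgn2 and Nlgn3 shared the precursor peak of Nrxn2. Nlgn2, the neuroligin of inhibitory synapses, read 194 and 153 CPM in precursors (70 UMIs in all) and 66.0 and 92.3 CPM in neuroblasts, and the pooled ratio was 1.96 (1.28 to 3.04). Nlgn3 read 201 and 182 CPM in precursors (79 UMIs) and 113 and 65.0 CPM in neuroblasts, a ratio of 2.42 (1.58 to 3.80). In both genes the precursors of each library were above all other classes of that library. Of 11 processing alternatives, precursors stayed clearly highest in 10 for Nlgn3 and in 6 for Nlgn2. The remaining classes were close together: Nlgn2 ran between 48.9 CPM in oligodendrocytes and 85.3 CPM in neuroblasts, and no pair of neighbours among them was separated. Excitatory neurons had Nlgn2 at 57.0 CPM and inhibitory neurons at 65.9 CPM, a ratio of excitatory to inhibitory neurons of 0.865 (0.790 to 0.948). The median of this ratio over 15243 genes, 0.899, lay within that interval. Nlgn3 read lowest in excitatory neurons, with 38.9 CPM, but microglia, with 43.8 CPM, were not separated from them (ratio 1.13, 0.751 to 1.62). The ratio of precursors to excitatory neurons was 4.84 (3.81 to 6.08), where 21.2% of 14666 genes were at least 1.5-fold higher. Of precursor nuclei 20.7% had an Nlgn3 UMI (median depth 1129 UMIs), against 3.06% of microglia (693 UMIs). Neither gene exceeded free RNA in oligodendrocytes or microglia, and Nlgn3 did not in astrocytes or neuroblasts.

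Lrrtm4 was highest in excitatory neurons and high in inhibitory and striatal neurons and in precursors, and did not exceed free RNA in astrocytes, microglia or mature oligodendrocytes. It read 4156 and 4236 CPM in excitatory neurons, against 3297 and 3686 CPM in inhibitory neurons, the next class (ratio 1.20, 1.18 to 1.21). Precursors had 3368 and 2739.8 CPM and striatal neurons 3095 and 2769.5 CPM, and these neighbours did not differ beyond their intervals. Neuroblasts had 1942 CPM, and their ratio to inhibitory neurons was 0.553 (0.514 to 0.594), where 9.04% of 11952 genes were lower and 12.2% higher. Microglia (446 CPM), astrocytes (342 CPM) and oligodendrocytes (315 CPM) did not exceed their free RNA levels of 420.4, 335 and 345 CPM. Of precursor nuclei 90.8% had an Lrrtm4 UMI, against 21.5% of oligodendrocytes at a lower median depth (1129 and 811 UMIs), and at 1000 UMIs per nucleus the shares were 88.9% and 21.1%.

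Lrrtm3 was the one member that was high in mature oligodendrocytes. It read 768 and 890.2 CPM in striatal projection neurons and 612 and 727 CPM in oligodendrocytes, a ratio of 1.28 (1.21 to 1.36). The oligodendrocyte level lay well above its free RNA level of 104 CPM, and 40.9% of these nuclei had an Lrrtm3 UMI, against 5.10% of microglia (median depths of 811 and 693 UMIs). Precursors followed with 479 CPM, inhibitory neurons with 429 CPM and excitatory neurons with 415 CPM. Astrocytes (81.1 CPM) and microglia (90.6 CPM) did not exceed free RNA.

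Lrrtm1 and Lrrtm2 were thinly counted and had no clear highest class. Lrrtm1 was highest in precursors with 27.8 and 54.5 CPM (19 UMIs in all), but its ratio of 1.43 to striatal neurons had an interval of 0.831 to 2.32. Lrrtm2 was highest in precursors with 27.8 and 47.2 CPM (17 UMIs), 1.15-fold over neuroblasts (0.536 to 2.53). In neurons Lrrtm2 hardly varied by class, with 23.5 CPM in inhibitory, 22.7 CPM in excitatory and 21.5 CPM in striatal neurons. Both exceeded free RNA in precursors and in these 3 neuronal classes, and in no other class of at least 100 nuclei.

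**Figure D1:**
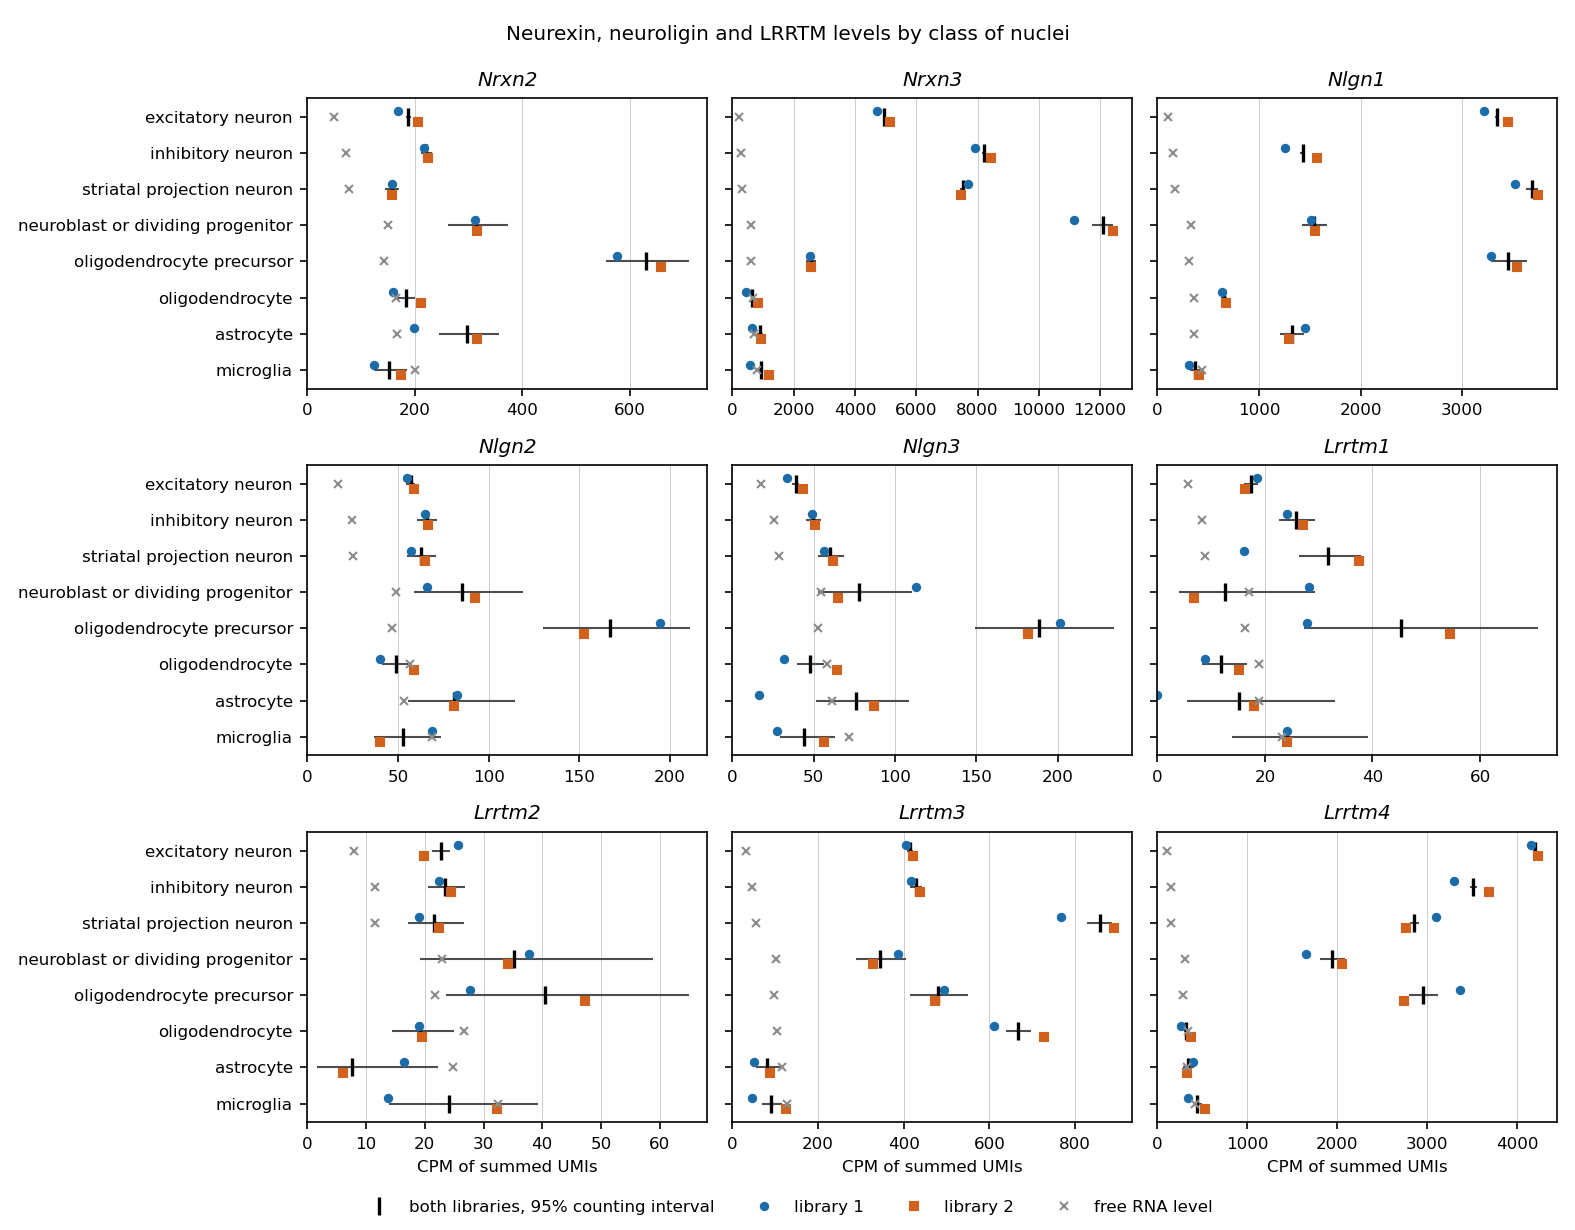
Levels of the 9 genes in the 8 classes of at least 100 nuclei, in CPM of UMIs summed over the nuclei of a class; black ticks show both libraries pooled, lines their exact 95% counting intervals, circles library 1, squares library 2 and crosses the free RNA level. Precursors stand apart for Nrxn2, Nlgn2 and Nlgn3, neuroblasts for Nrxn3, and oligodendrocytes are near the top for Lrrtm3 alone.

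Most members differed within the oligodendrocyte lineage. Precursors, in each library and pooled, were at least 1.5-fold above mature oligodendrocytes for 7 of the 9 genes, where 13.3% of 9340 genes were. The ratio of precursors to oligodendrocytes was 9.39 for Lrrtm4 (8.61 to 10.2), 5.30 for Nlgn1 (4.95 to 5.68), 4.09 for Nrxn3 (3.78 to 4.41), 3.96 for Nlgn3 (2.97 to 5.27), 3.81 for Lrrtm1 (2.05 to 6.88), 3.42 for Nrxn2 (2.94 to 3.98) and 3.41 for Nlgn2 (2.52 to 4.58). Oligodendrocytes did not exceed their free RNA level for Nrxn3, Nlgn2, Nlgn3, Lrrtm1 and Lrrtm4, and they did for Nrxn2 and Nlgn1. Because a class that sets the level in both libraries cannot exceed it, the genes not above it are not shown to be absent. Lrrtm2 had a ratio of 2.11 that fell below 1.5 in library 1 (1.47), and Lrrtm3 ran the other way with 0.718 (0.618 to 0.831), which was short of 1.5-fold lower. The median ratio of precursors to oligodendrocytes over all 9340 genes was 1.02.

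The 93 differentiating oligodendrocytes, too few for the class comparison, showed Lrrtm4 at 935 and 1407 CPM, between the 2955 CPM of precursors and the 315 CPM of oligodendrocytes. Differentiating over mature oligodendrocytes gave ratios of 3.93 for Lrrtm4 (3.33 to 4.61), 2.74 for Nlgn1 (2.40 to 3.12) and 2.64 for Nlgn2 (1.54 to 4.27), 3 of 8 genes compared, where 9.88% of 8918 genes were higher. Lrrtm3 was lower, with 224 and 352 CPM in differentiating and 612 and 727 CPM in mature oligodendrocytes (ratio 0.458, 0.333 to 0.615), and so was Nrxn3 (0.478), where 17.8% of genes were lower; Nrxn3 did not exceed free RNA in either of these classes. Over astrocytes, precursors were higher for all 7 genes with enough UMIs to be compared, where 15% of 4041 genes were. The ratios of precursors to astrocytes ran between 2.06 for Nlgn2 and 8.64 for Lrrtm4. The library 1 values in this comparison rest on 50 astrocytes.

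Neurons were then divided into 12 named subclasses of at least 100 nuclei. They were layer 2/3 intratelencephalic (1556), layer 6 corticothalamic (1303), layer 5 extratelencephalic (528), layer 6b (274), layer 5/6 near-projecting (218) and claustrum neurons (183), the interneurons that express somatostatin (830), parvalbumin (787), VIP (403) and LAMP5 (313), and direct-pathway (747) and indirect-pathway (417) striatal neurons. Another 6 neuronal clusters of at least 100 nuclei did not pass the naming rule for any marker list and are called by their leading gene. By markers the Rorb-led and Ntng1-led excitatory clusters came closest to layer 4/5 intratelencephalic neurons. The Il1rapl2-led excitatory cluster came closest to deep-layer intratelencephalic neurons. These 6 clusters took no part in the calls of a clear highest subclass. Among the 12 subclasses 5 of 9 genes had a clear highest one, where 13.8% of 14231 genes did, and 0 of 9 reached 1.5-fold over the next, where 7.46% of genes did. The ratio of the highest to the next subclass had a median of 1.17 over the 9 genes and 1.13 over all genes. VIP interneurons were clearly highest for Nrxn2, Nrxn3 and Lrrtm1 (0.984% of all genes), layer 6 corticothalamic neurons for Lrrtm2 (0.646%) and layer 2/3 neurons for Lrrtm4 (1.31%).

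Nrxn3 and Nrxn2 were both highest among the named subclasses in VIP interneurons. Nrxn3 read 12772 and 14720.3 CPM in VIP interneurons, against 10796 and 10589 CPM in somatostatin interneurons, the next subclass (ratio 1.29, 1.27 to 1.32). Neither subclass was uniform. VIP interneurons were made of a cluster of 87 nuclei with 21447 CPM (21138 in library 1 and 21609 in library 2) and one of 316 nuclei with 10188 CPM. The cluster of 316 nuclei, led by Vip, lay below somatostatin interneurons as a whole (10688 CPM). The lead of VIP interneurons for Nrxn3 thus rested on the cluster of 87 nuclei. That cluster had Htr3a, Cnr1 and Cck but not Vip among its leading genes. Somatostatin interneurons were made of clusters of 318, 364 and 148 nuclei with 13681, 9409 and 7443 CPM. The log2 ratio of VIP to somatostatin interneurons was −0.078 when the 9 genes took part in the clustering. LAMP5 interneurons, with 3362 and 3729.7 CPM, were far lower, and the ratio of VIP to LAMP5 interneurons was 3.90 (3.75 to 4.06), where 5.74% of 6817 genes were at least 1.5-fold higher. Parvalbumin interneurons had 5548 and 6043 CPM. Among excitatory neurons layer 6 corticothalamic neurons were highest for Nrxn3, with 7456 and 8103 CPM, and near-projecting (2195 and 2446 CPM) and claustrum neurons (1620.1 and 2552 CPM) lowest. Nrxn2 read 404 and 295 CPM in VIP interneurons and 279 and 240.5 CPM in near-projecting neurons (ratio 1.34, 1.10 to 1.64), and direct-pathway (141 and 123 CPM) and layer 6 corticothalamic neurons (119 and 166 CPM) were lowest, not separated from each other. Unlike Nrxn3, Nrxn2 had more in the VIP cluster of 316 nuclei (397 CPM) than in that of 87 nuclei (234 CPM).

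Nlgn1 varied 4.27-fold over the 12 subclasses (4.10 to 4.45). Layer 5 extratelencephalic neurons, which project out of the cortex to the brainstem and spinal cord, had 4011 and 4482 CPM, and direct-pathway (3971 and 4201 CPM), indirect-pathway (3968 and 3982 CPM) and layer 2/3 neurons (3619.8 and 3895 CPM) followed closely. The ratio of layer 5 extratelencephalic to direct-pathway neurons was 1.02 (0.997 to 1.05), so no single named subclass was clearly highest. Under 6 of 11 processing alternatives one was, layer 5 extratelencephalic neurons in 5 and direct-pathway neurons in 1. Somatostatin interneurons were lowest, with 889 and 1085 CPM, and parvalbumin interneurons (1128 and 1289 CPM) were close to them. Excitatory neurons were not uniform: layer 6b (1292 and 1346 CPM) and claustrum neurons (1042 and 1268 CPM) had levels like those of interneurons. Of the unnamed clusters, the Meis2-led inhibitory one had 2368 CPM, above near-projecting neurons with 2164 CPM (ratio 1.09, 1.03 to 1.17).

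Nlgn2 and Nlgn3 differed in small steps over neuronal subclasses. Over all 18 named subclasses and unnamed clusters in order of level, no pair of neighbours was separated for either gene, while the highest and the lowest were. Nlgn2 ran between 48.5 CPM in layer 6b and 84.2 CPM in VIP interneurons, and Nlgn3 between 31.4 CPM in a Rorb-led excitatory cluster and 65.3 CPM in direct-pathway neurons. The ratio of the highest to the lowest of these 18 was 1.74 (1.22 to 2.48) for Nlgn2 and 2.08 (1.66 to 2.59) for Nlgn3.

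Lrrtm4 had the largest range of the 4 members with at least 10000 UMIs over these nuclei, with 15-fold (13.2 to 17.3) between layer 2/3 and near-projecting neurons. It read 6077 and 5655 CPM in layer 2/3 neurons and 405 and 377 CPM in near-projecting neurons, and the range was 15-fold in each library. Of 370 genes with at least 10000 UMIs 16.5% had a larger range, and the median was 4.04-fold. Nrxn3 (6.26-fold) and Nlgn1 (4.27-fold) also passed 3-fold and Lrrtm3 (2.62-fold) did not, which made 3 of 4 members, where 57.8% of the 370 genes passed. Layer 5 extratelencephalic neurons came second for Lrrtm4, with 5138 and 5053 CPM (ratio of layer 2/3 to layer 5 extratelencephalic neurons 1.15, 1.13 to 1.17), and VIP and parvalbumin interneurons came next with 4308 and 3924 CPM. Layer 6 corticothalamic (1281 and 1128 CPM) and layer 6b neurons (1232 and 949 CPM) were low in both libraries. Claustrum neurons differed most between libraries, with 4082 CPM in library 1 and 2629 CPM in library 2.

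Lrrtm3 was highest in striatal neurons of both pathways, with 878 CPM in indirect-pathway and 886 CPM in direct-pathway neurons, with a ratio of indirect to direct pathway of 0.991 (0.916 to 1.07). Layer 6 corticothalamic (667 CPM), near-projecting (648 CPM) and LAMP5 neurons (598 CPM) followed, and VIP (357 CPM), claustrum (354 CPM) and somatostatin neurons (338 CPM) were lowest. Lrrtm2 was highest in layer 6 corticothalamic neurons, with 51.4 and 38.5 CPM (216 UMIs), against 31.8 and 34.6 CPM in parvalbumin interneurons (ratio 1.36, 1.06 to 1.76). Lrrtm1 was highest in VIP interneurons, with 54.0 and 46.9 CPM, against 15.3 and 41.1 CPM in direct-pathway neurons, among the named subclasses. That ratio of 1.49 (1.01 to 2.19) rested on 47 UMIs in VIP interneurons, and of the alternatives tried it stayed clear only where the 9 genes took part in the clustering.

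**Figure D2:**
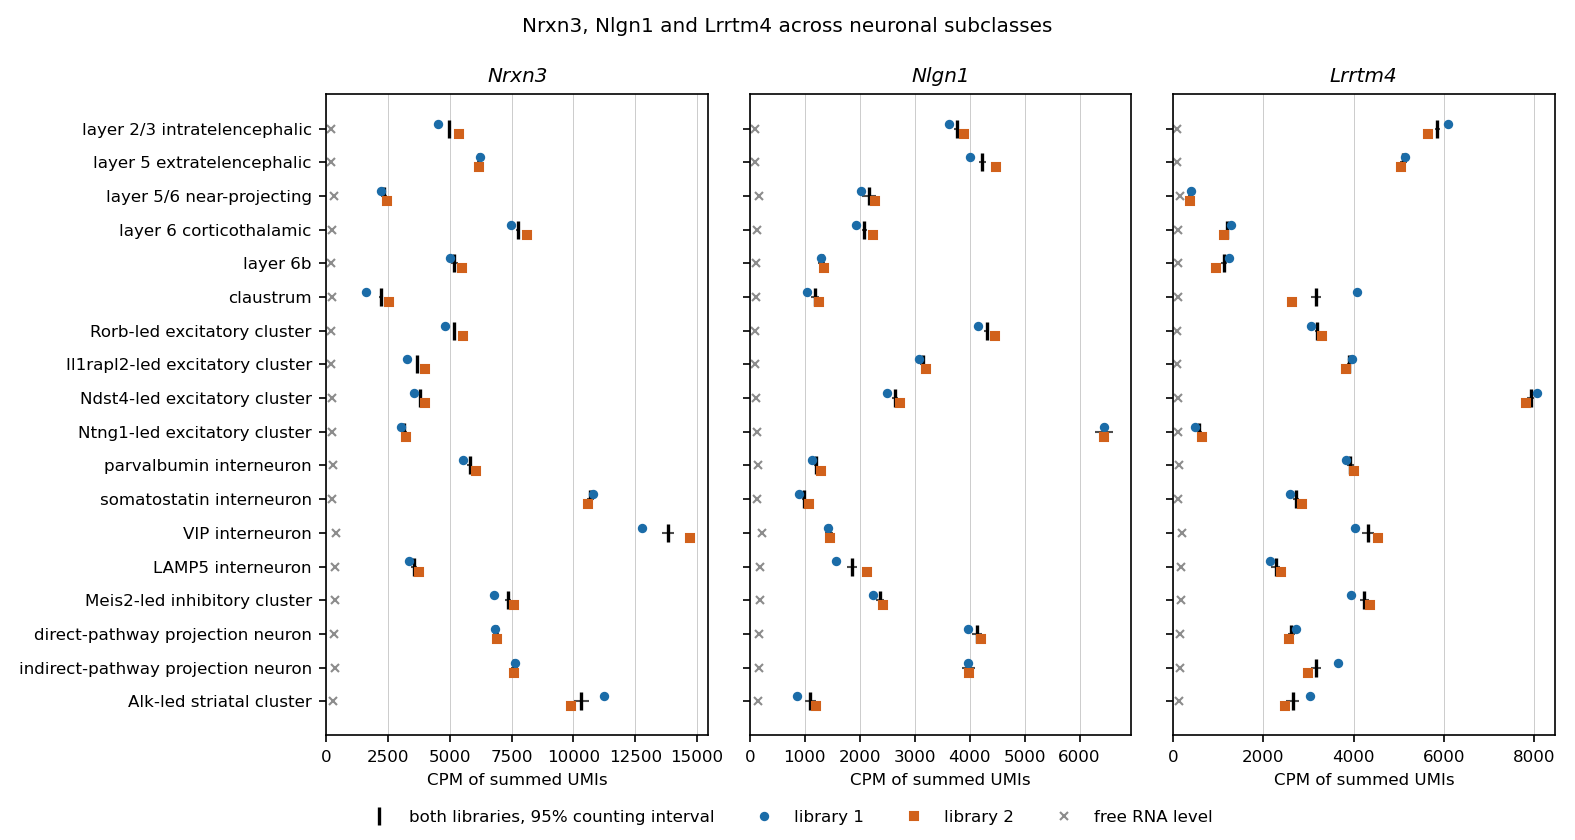
Nrxn3, Nlgn1 and Lrrtm4 across 12 named neuronal subclasses and 6 unnamed clusters, in CPM of summed UMIs; black ticks show both libraries pooled, lines their exact 95% counting intervals, circles library 1, squares library 2 and crosses the free RNA level. VIP interneurons lead for Nrxn3, the Ntng1-led cluster for Nlgn1 and the Ndst4-led cluster for Lrrtm4, and the libraries lie close together in most rows.

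The unnamed clusters widened these ranges. An excitatory cluster led by Ndst4 (1098 nuclei) had the highest Lrrtm4 of all 18, with 8050.2 and 7823 CPM, 1.35-fold over layer 2/3 neurons (1.33 to 1.37). An excitatory cluster led by Ntng1 (243 nuclei) had Lrrtm4 at only 497 and 653 CPM but the highest Nlgn1, with 6438 and 6451 CPM, 1.5-fold over the Rorb-led cluster that came next (1.45 to 1.54). Its Lrrtm3, at 49.5 CPM, did not exceed its free RNA level of 36.1 CPM by the interval, and the ratio of direct-pathway neurons to this cluster was 17.9 (13.2 to 24.8). Its Lrrtm1, with 94.4 and 43.0 CPM, was above VIP interneurons in library 1 only, and the pooled ratio of 1.33 had an interval that included 1 (0.892 to 2.00). A striatal cluster led by Alk (201 nuclei) stood apart from both pathways by a high Nrxn3, with 11228 and 9919 CPM, and a low Nlgn1, with 861 and 1209 CPM.

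**Figure D3:**
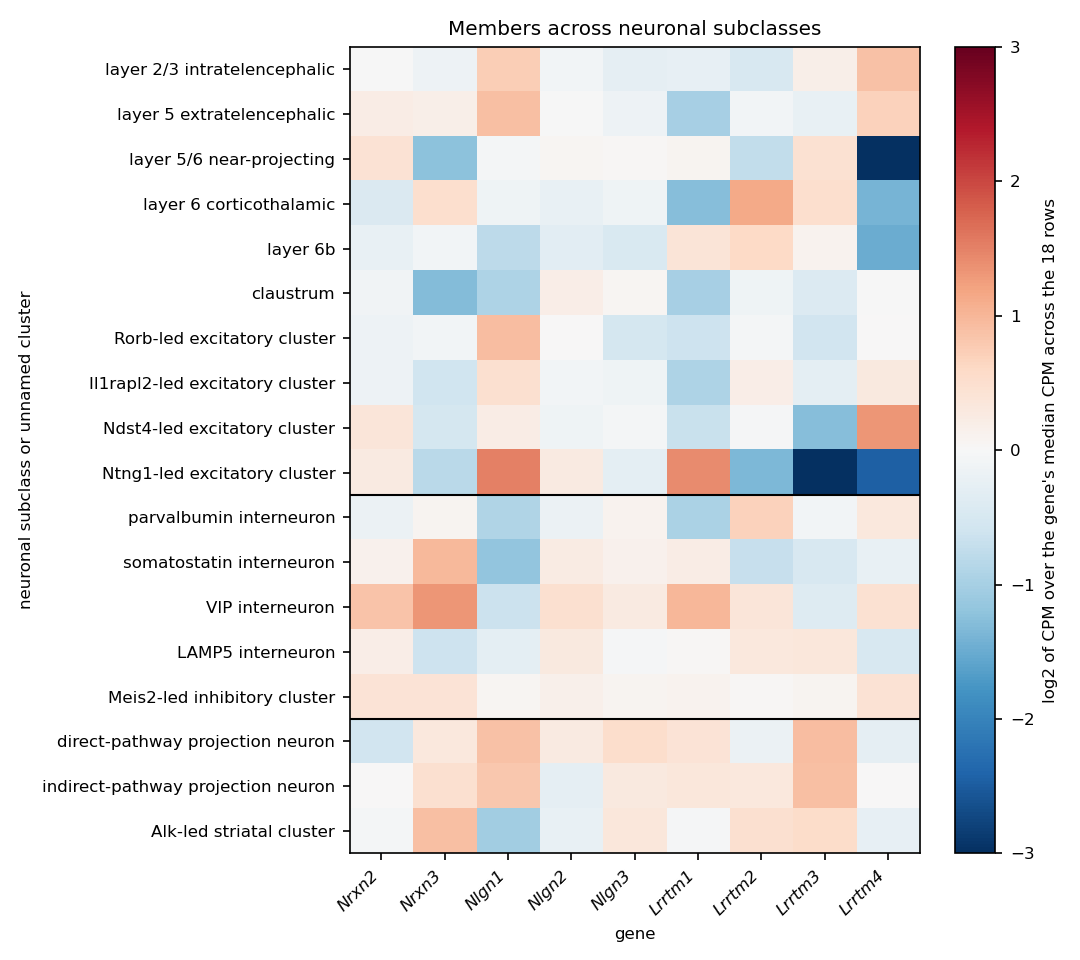
Each gene's level in 12 named subclasses and 6 unnamed clusters as log2 of its CPM over its own median across the 18 rows, red above and blue below (colours are capped at 3 on either side), with black lines between excitatory, inhibitory and striatal rows. Nlgn2 and Nlgn3 stay pale in all rows, and the darkest fields are the low Lrrtm4 of near-projecting and Ntng1-led neurons and the low Lrrtm3 of the Ntng1-led cluster.

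Each pair of related excitatory subclasses differed by Nlgn1 and Lrrtm1, and some pairs also by other members. The direction varied, and Lrrtm1 was thinly counted. Layer 5 extratelencephalic over near-projecting neurons gave ratios of 13.1 for Lrrtm4 (11.5 to 15), 2.65 for Nrxn3 (2.51 to 2.80) and 1.96 for Nlgn1 (1.84 to 2.08), while Lrrtm1 was lower (0.475, 0.260 to 0.918); 9.40% of 9295 genes were higher and 11.0% lower. Layer 6 corticothalamic over layer 2/3 neurons gave 0.206 for Lrrtm4 (0.200 to 0.212), 0.555 for Nlgn1 (0.542 to 0.567) and 0.493 for Lrrtm1 (0.352 to 0.681), against 3.06 for Lrrtm2 (2.42 to 3.87) and 1.57 for Nrxn3 (1.54 to 1.59), where 9% of 12113 genes were lower and 7.76% higher. Layer 6b over layer 6 corticothalamic neurons gave 3.15 for Lrrtm1 (2.03 to 4.87) and 0.628 for Nlgn1 (0.596 to 0.663), where 4.60% of 10350 genes were higher and 7.09% lower.

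Among interneurons, somatostatin over parvalbumin gave 1.84 for Nrxn3 (1.81 to 1.88), 2.24 for Lrrtm1 (1.48 to 3.43) and 0.383 for Lrrtm2 (0.250 to 0.575), where 6.79% of 10390 genes were higher and 6.05% lower. VIP over LAMP5 interneurons gave 1.89 for Lrrtm4 (1.79 to 2.00) and 1.95 for Lrrtm1 (1.15 to 3.39) beside the Nrxn3 ratio above, and 0 members were lower, where 6.76% of genes were. Between the striatal pathways, indirect over direct, 0 of 9 genes passed in either direction, where 1.06% of 8556 genes were higher and 2.84% lower. Across classes, striatal over inhibitory neurons was 2.00 for Lrrtm3 (1.91 to 2.10) and striatal over excitatory neurons 2.07 (1.99 to 2.15), where 9.28% of 14879 genes were higher.

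Lrrtm3 followed the alpha-catenin gene that contains it. Over 17 cell types (12 neuronal subclasses and 5 other classes) the levels of Lrrtm3 and Ctnna3, which encodes an adherens junction protein, had a Pearson correlation of 0.90 on the scale log2(CPM + 10). This is a description, and the points share 2 libraries and their depth. Ctnna3 was clearly highest in oligodendrocytes, with 1125 and 1112 CPM, against 408 and 576 CPM in striatal projection neurons (ratio 2.11, 1.99 to 2.23), the reverse of the order of Lrrtm3. Within the oligodendrocyte lineage Ctnna3 also ran further than Lrrtm3: precursors over oligodendrocytes gave 0.299 for Ctnna3 (0.250 to 0.354) and 0.718 for Lrrtm3. The other pairs did not move together, with correlations of −0.18 for Lrrtm1 and Ctnna2 and −0.16 for Lrrtm2 and Ctnna1. Of the 17 cell types, claustrum and layer 5 extratelencephalic neurons had the most Ctnna2, with 3554 and 3524 CPM, and Lrrtm1 at 12.6 and 12.7 CPM. In GENCODE M21, Lrrtm3 overlaps 1 annotated exon of Ctnna3 and Lrrtm2 (chr18:35209003-35215024) overlaps 2 of Ctnna1, and whether the counting used strand is not given in the sources used here. Reads of each gene and its host therefore cannot be told apart with certainty, and the values of Lrrtm1, Lrrtm2 and Lrrtm3 are uncertain to that extent.

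**Figure D4:**
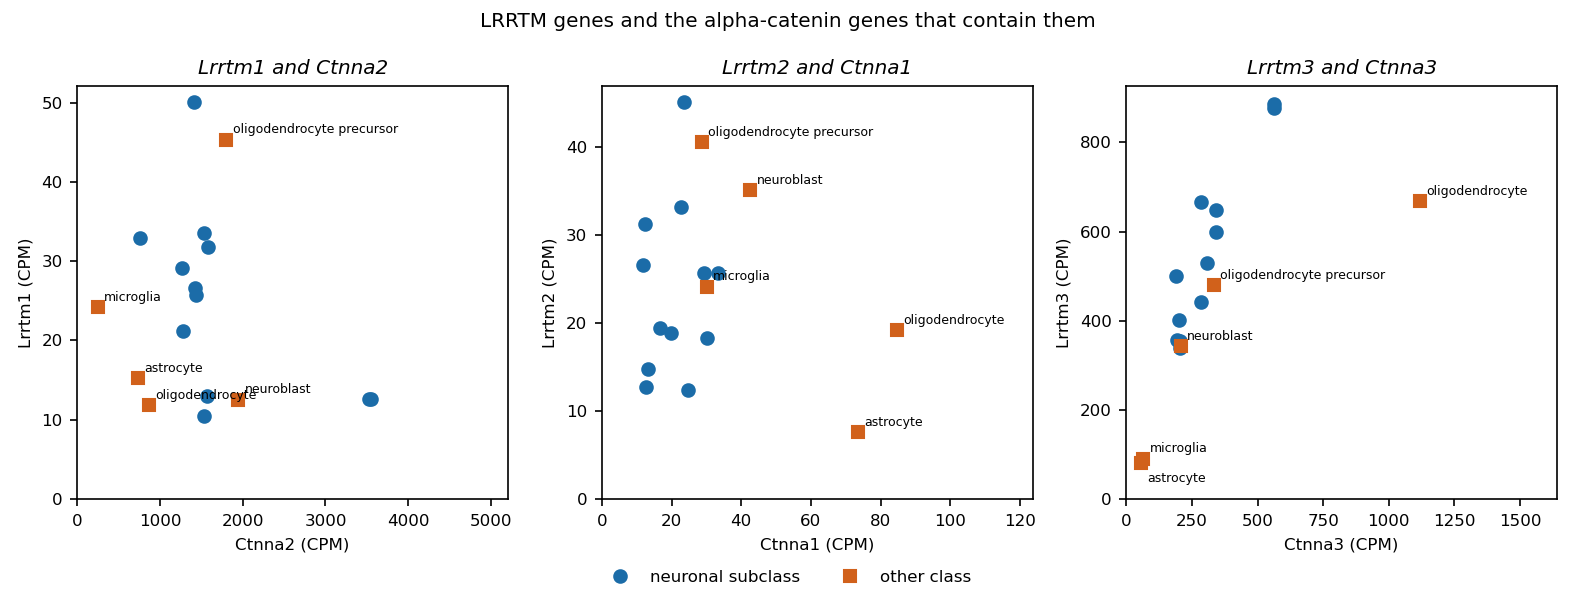
Levels of 3 LRRTM genes (vertical axes, CPM) against those of the alpha-catenin genes that contain them (horizontal axes, CPM) in 17 cell types; circles are neuronal subclasses and squares other classes. Lrrtm3 rises with Ctnna3 except that oligodendrocytes lie far to the right, and the other pairs show no common trend.

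Over the same 17 cell types the members fell into sets of like pattern, given as a description without a test. Nlgn2 and Nlgn3 had a correlation of 0.89, Nrxn2 and Nlgn2 of 0.85 and Nrxn2 and Nlgn3 of 0.77, the 3 genes with the precursor peak. That peak is a single point of the 17, and correlations without it are not given. Lrrtm4 and Nrxn3 had a correlation of 0.73. Nrxn2 and Nrxn3 did not follow each other (−0.000178). Among 10658 genes with at least 500 UMIs, the most like Nrxn2 were Nlgn2, Tmem121 and Fyn (0.84 to 0.85), Fyn being a kinase needed for myelination. Nlgn2 was most like Tmem121, Nlgn3 and Kcnh8 (0.87 to 0.90), and Nlgn3 most like C1ql1, a marker used here to name precursors, Kcnh8 and Tmem121 (0.89 to 0.90). Nrxn3 was most like Rtl1, Upp2 and Bbs5 (0.86 to 0.93), Nlgn1 most like Acp1, Galc and Rab36 (0.84 to 0.93), Lrrtm3 most like Ank3, Ctnna3 and Hecw2 (0.90 to 0.93) and Lrrtm4 most like Cntn4, Uggt2 and Cit (0.84 to 0.88). The thinly counted Lrrtm1 (Mllt1, Plppr1 and Rhbdd2, 0.70 to 0.76) and Lrrtm2 (2410002F23Rik, Shmt2 and Sema6b, 0.71 to 0.73) had weaker likeness.

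Partner genes were counted by the same rule, by which 26.4% of all genes had a clear highest class and 13.8% a clear highest neuronal subclass. Of the secreted ligands of neurexins (cerebellins, neurexophilins and C1q-like proteins), 1 of 8 measured had a clear highest class, Nxph2 in inhibitory neurons. It read 21.7 and 21.2 CPM there, against 0 and 5.99 CPM in astrocytes, with a wide interval (ratio 4.22, 1.15 to 35.1). By neuronal subclass 3 of 7 had a clear highest one, among them Nxph4. Nxph4 read 47.5 and 37.1 CPM in layer 6b, against 3.27 and 2.56 CPM in layer 6 corticothalamic neurons (ratio 14.9, 8.15 to 29.1). Cbln4, a cerebellin, read 30.4 and 23.0 CPM in somatostatin interneurons, against 5.72 and 14.9 CPM in claustrum neurons (ratio 2.30, 1.21 to 4.82). Of the other postsynaptic ligands 2 of 6 were clear by class: Igsf21, a ligand at inhibitory synapses, in precursors with 167 and 127 CPM, against 58.4 and 78.1 CPM in excitatory neurons (ratio 2.05, 1.56 to 2.65), and Adgrl1 in astrocytes. The neuroligin inhibitors Mdga1 and Mdga2 had no clear class (0 of 2). Of the glypican heparan sulphate proteoglycans 1 of 5 did, Gpc5 in astrocytes with 6215 and 5968 CPM, against 3249.6 and 3005 CPM in precursors (ratio 1.94, 1.82 to 2.08), a class in which Lrrtm4 did not exceed free RNA.

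Of 16 genes of other synaptic adhesion pairs, 7 had a clear highest class, where 26.4% of all genes did, 3 of them in precursors, where 1.95% of all genes were highest. Lrrc4c, which encodes netrin-G ligand 1, read 4729 and 4586 CPM in precursors, against 2088 and 2426 CPM in striatal neurons (ratio 1.98, 1.89 to 2.08), and Slitrk5 had a ratio of 1.70 (1.17 to 2.41) over the same class. Ptprd, a presynaptic receptor phosphatase, read 13371 and 13113 CPM in excitatory neurons, against 5552 and 5298 CPM in oligodendrocytes (ratio 2.44, 2.40 to 2.48). Of 10 intracellular partners 5 had a clear highest class. Cask, a scaffold that binds neurexins, was at 514 and 472 CPM in precursors, against 245 and 236 CPM in neuroblasts (ratio 2.04, 1.59 to 2.63), the same next class as for Nrxn2. Magi2, a scaffold that binds neuroligins, was at 4723 and 4371 CPM in oligodendrocytes, against 2223 and 2141 CPM in inhibitory neurons (ratio 2.09, 2.05 to 2.14). By neuronal subclass, 6 of the 10 intracellular partners and 5 of the 16 adhesion genes were clear, where 13.8% of all genes were, among them Lrrc4 in parvalbumin interneurons (1.65, 1.26 to 2.18) and Slitrk1 in claustrum neurons (1.81, 1.46 to 2.23).

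The libraries differed little in most pairs of member and class that had enough UMIs to be compared. Of 33 pairs of member and class with at least 100 UMIs in each library, the ratio of library 2 to library 1 lay between 0.776 and 2.06 with a median of 1.07, and 27 were within 1.25-fold. Beyond that range in oligodendrocytes were Nrxn3 (1.94), Lrrtm4 (1.41) and Nrxn2 (1.32), of which Nrxn3 and Lrrtm4 did not exceed free RNA there. The others were Nrxn3 in microglia (2.06), Nlgn3 in excitatory neurons (1.3, 1.17 to 1.44) and Lrrtm2 in excitatory neurons, lower in library 2 (0.776, 0.676 to 0.890). Astrocytes had no pair with at least 100 UMIs in each library, and microglia only that of Nrxn3. The share within 1.25-fold over all genes is not given. The group behind each library is not known, and the share of each difference due to treatment, animals, dissection or library cannot be told apart.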

How the data were processed

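Nuclei of the prefrontal cortex were measured by single-nucleus RNA sequencing with a droplet method. The deposited matrix holds raw UMI counts per gene and nucleus, made on build mm10 with Cell Ranger 1.3.0 and Seurat 3.1.4 per the submitters' processing notes, while the matrix header names software version 3.1.0. Counting strand and treatment of intronic reads are not given in the sources used here. With scanpy 1.11.5 (Python 3.11.15, NumPy 2.4.6, SciPy 1.17.1), nuclei under 500 genes and Scrublet doublets of each library were removed (889 in library 1, 660 in library 2). Nuclei were clustered on 50 components of 3000 variable genes, without the 9 members and their partner and host genes (Leiden, resolution 1, then 0.5 within neurons), and clusters were named from 219 markers; details of the naming rule were set after values were seen. The members and lists were chosen with earlier results of these data known. UMIs were summed per cell type and library and given as CPM, with exact Poisson, conditional and Clopper-Pearson 95% intervals. Tests between treatments and p-values were not possible. Partner genes given with values were those with a clear highest cell type at least 1.5-fold over the next (one of them is not reported here), Adgrl1, Mdga1 and Mdga2 are named only to account for counts, after their values were seen, and other genes named are the 3 most like each member. Loci came from GENCODE M21 and promoter windows from RefSeq. Intervals cover counting error only. The alternatives tried were the minimum of genes (1000), doublets kept, Leiden resolution (0.5 or 2), each nucleus' own CPM, thinning to 1000 UMIs, leaving the 50 genes of most UMIs out of the total, subtraction of free RNA, each library alone and the members kept among the variable genes.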

Additional observations from a re-analysis of the deposited data

How the results depend on the processing

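The count of members with a clear highest class was 7. It was 4 with doublets kept (Nrxn3, Nlgn3, Lrrtm3 and Lrrtm4), with 11 classes of at least 100 nuclei compared, and 5 to 7 under the other 10 alternatives, 6 with library 1 only and 5 with library 2 only. Lrrtm3 and Lrrtm4 kept their clear class under all 11 alternatives. Nrxn3 was clear in neuroblasts under 9 and in inhibitory neurons under the other 2 (library 1 only and the minimum of 1000 genes), where neuroblasts were too few to compare. Precursors stayed clear under 10 for Nlgn3, 9 for Nrxn2 and 6 for Nlgn2, and were too few to compare with the minimum of 1000 genes; Nlgn2 also lost its call with resolution 2, doublets kept, thinning and library 2 only. Nlgn1 kept its clear class under 4. The count for neuronal subclasses was 5. It was 3 with library 2 only (Nrxn3, Nlgn1 and Lrrtm4) and 4 or 5 under the other alternatives, but not of the same genes: Lrrtm1 stayed clear under 1 of 11, and Nlgn1 became clear under 6. The log2 ratio of striatal projection neurons to precursors for Nlgn1 was −0.074 after thinning to 1000 UMIs and −0.0073 with each nucleus' own CPM, and that of VIP to somatostatin interneurons for Nrxn3 was −0.078 with the members kept among the variable genes. The cause was not tested. Of the other ratios of highest to next class 65 moved by less than their interval and 27 by more, and of those by subclass 76 and 22. Depth limits microglia and oligodendrocytes most, since thinning to 1000 UMIs left out 827 of 882 and 2300 of 3057 nuclei, and Lrrtm1 and Lrrtm2 rest on under 20 UMIs in precursors. No paired analysis was possible because there is 1 library per group and no test.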
